A study of Homo sapiens with 2 samples.

Results

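The forkhead family was examined in SUM159 cells, an established line from a triple-negative breast cancer, which were kept as an attached monolayer and made resistant to doxorubicin. Its members were taken as the gene symbols of the count files that begin with FOX, carry a subfamily letter from A to S and a number, and are not antisense or opposite-strand transcripts. This gave 50 genes out of 23368. Both libraries, replicates 1 and 2, belonged to 1 group of wild-type genotype treated with doxorubicin over a long term at rising doses, in medium that contained insulin and hydrocortisone. According to the methods of the study, exposure to the drug was followed by a recovery period without it. No untreated library was analysed here, so the levels below describe the resistant cells and not a change upon resistance, and no source says whether the resistant line was cloned.

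Forkhead factors share a winged-helix DNA-binding domain and are grouped into subfamilies by its sequence. FOXA proteins are pioneer factors that open chromatin, FOXC, FOXD, FOXF and FOXQ proteins act in the mesenchyme and in cell fate, FOXM1 drives the genes of the late cell cycle, and FOXO proteins turn on genes of arrest, cell death and stress defence until kinases of the insulin pathway send them out of the nucleus. In breast tissue FOXA1 marks the luminal lineage and FOXC1 the basal-like one.

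The counts inside genes summed to 23044084 in replicate 1 and 17985508 in replicate 2, and levels are given as counts per 1000000 counts of the library (CPM). Where a gene had no counts, a level of up to 3 counts remains possible, which is 0.130 CPM for replicate 1 and 0.167 CPM for replicate 2 and covers counting error only. Whether the libraries came from separate cultures is not stated, and what separates them may be technical. The mesenchymal markers VIM, FN1 and SPARC were far above the epithelial cadherin CDH1, which had 9 and 13 counts in replicates 1 and 2. Other epithelial markers were divided. KRT18 had 409 and 282 CPM, KRT8 had 308 and 223 CPM and TP63 had 73.8 and 94.5 CPM. In contrast, KRT19 had 26 and 25 counts and KRT5 had 2 counts in each library. Of 8 leukocyte markers 2 reached a mean count of 20, of 4 endothelial markers only PECAM1 did, with 24 and 20 counts, and of 3 liver and blood markers none did. The leukocyte markers added up to 17.8 and 9.40 CPM in replicates 1 and 2, led by CD14 and PTPRC, and the B cell marker MS4A1 and the T cell marker CD3E had no counts.

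By CPM, the highest forkhead genes of the resistant cells were the cell cycle factor FOXM1, the paralogs FOXK2 and FOXK1, and the mesenchymal factors FOXF2, FOXD1 and FOXF1, whereas per kilobase FOXF2, FOXD1, FOXM1, FOXF1 and FOXQ1 led. In sum the 50 members reached 1027 and 1207 CPM in replicates 1 and 2, or 1117 ± 127 CPM (SD, n = 2). A mean count of 20, the minimum that the methods of the study set for bulk RNA-seq, was reached by 23 members, or 46.0%, against 52.8% of all genes. The members that reached it had a median of 47.0 CPM, and all genes that reached it one of 34.1 CPM. Another 8 members had 1 or more counts but stayed below the minimum, and 19 had none in either library. No single factor dominated the family. FOXM1, the highest, held 11.0% of the forkhead CPM in replicate 1 and 12.7% in replicate 2, with a mean of 11.8%. On average the top 3 members held 30.0% and the top 10 held 74.8%. By subfamily, the FOXK genes had 178 and 219 CPM in replicates 1 and 2 and the FOXF genes 181 and 164 CPM, so that FOXK led on average and in replicate 2, and FOXF in replicate 1. CPM follow the length of a transcript as well as its abundance, and the order per kilobase is given further on. The FOXA genes together had only 16.8 and 12.8 CPM.

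**Figure D1:**
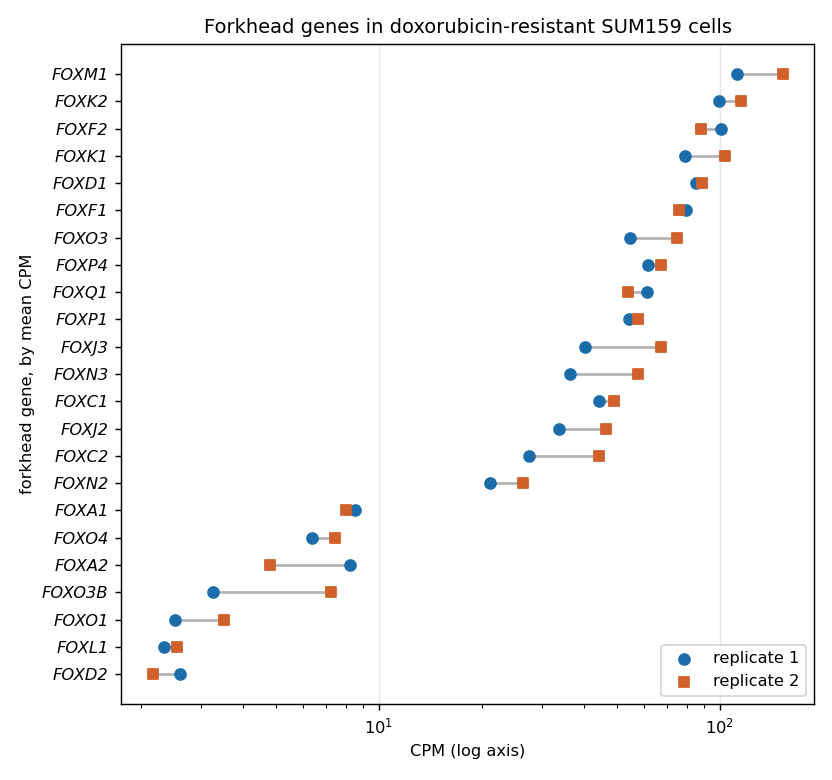
CPM, on a log axis, of the 23 forkhead genes with a mean count of at least 20, ordered by their mean. Circles are replicate 1 and squares replicate 2, and the genes fall into an upper set from FOXM1 at 133 CPM to FOXN2 at 23.9 CPM and a lower set from FOXA1 at 8.26 CPM to FOXD2 at 2.39 CPM.

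FOXM1, which activates genes of the transition from G2 into mitosis, was the forkhead gene with the highest CPM. The gene (chr12:2966846-2986340 of GRCh37, minus strand) took up 2593 counts of replicate 1 and 2756 of replicate 2, which is 113 and 153 CPM. Positions of the other members are of the same build. The mean of FOXM1 was 133 ± 28.8 CPM (SD, n = 2). Of its annotated exonic length, 15.9% is shared with ITFG2 on the opposite strand, which had 193 and 185 counts, and without a stated strand setting reads in the overlap cannot be assigned. The genes that FOXM1 is known to activate were expressed throughout. All 25 listed targets reached the minimum, with a median of 98.3 CPM, against 52.8% of all genes. By CPM the highest was TOP2A, the DNA topoisomerase that doxorubicin poisons, with 468 and 649 CPM in replicates 1 and 2. The phosphatase gene CDC25B followed with 456 and 445 CPM, and the mitotic cyclin gene CCNB1 with 407 and 431 CPM. Per kilobase of exon CCNB1 (167 and 177 RPKM), CDC20 (118 and 115 RPKM) and CDC25B (117 and 114 RPKM) exceeded TOP2A (73.5 and 102 RPKM). The lowest by CPM were the centromeric histone gene CENPA with 30.6 and 30.4 CPM and the phosphatase gene CDC25C with 24.1 and 25.3 CPM. All 25 targets were thus above 1.89 CPM, the median over all genes, which includes the many genes below the minimum. CENPA and CDC25C were below 34.1 CPM, the median of all genes at the minimum.

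The partners through which FOXM1 reaches these promoters were also present. MYBL2, which encodes B-MYB and binds the MuvB complex before FOXM1 does, had 235 and 275 CPM, and RBBP4, a histone-binding subunit of MuvB, had 238 and 221 CPM. The other MuvB subunit genes were lower, namely LIN54 with 16.5 and 19.2 CPM, LIN52 with 14.3 and 18.1 CPM, LIN9 with 14.7 and 16.8 CPM and LIN37 with 10.4 and 9.79 CPM. All 6 genes reached the minimum. So did all 6 genes of the related DREAM and E2F machinery, which holds cell cycle genes silent in resting cells or induces them at S phase entry. These had a median of 95.3 CPM, with E2F4 at 115 and 100.4 CPM, RBL2 at 85.7 and 126 CPM and TFDP1 at 94.4 and 99.5 CPM as the highest and RBL1 at 23.6 and 55.5 CPM and DYRK1A at 30.1 and 36.7 CPM as the lowest.

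FOXK2 and FOXK1, nuclear factors that recruit corepressors and are broadly expressed, were both among the 4 highest members by CPM. FOXK2 (chr17:80477589-80602538) had 2285 and 2075 counts, or 107 ± 11.5 CPM (SD, n = 2). FOXK1 (chr7:4721926-4811073) had 1819 and 1869 counts, or 91.4 ± 17.7 CPM (SD, n = 2). Their merged exons are long, 9986 bp in FOXK2 and 13106 bp in FOXK1, and per kilobase they stood lower in the order. FOXK2 shares 53 bp of exon with WDR45B on the opposite strand, listed as WDR45L with 2498 and 1973 counts. It also shares 1190 bp with the long noncoding RNA gene ENSG00000261845 and 162 bp with ENSG00000262147, both on the opposite strand. The cofactors of the FOXK proteins, and those of the FOXP repressors, were all expressed: 9 of 9 reached the minimum with a median of 98.2 CPM. The histone deacetylase genes HDAC1, with 220 and 182 CPM, and HDAC2, with 174 and 177 CPM, and the WNT signal transducer DVL1, with 158 and 146 CPM, were the highest, and the corepressor CTBP2, with 77.8 and 82.0 CPM, and DVL2, with 42.7 and 38.9 CPM, the lowest.

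Factors of mesenchymal development were also among the highest members, by CPM and per kilobase. FOXF2 (chr6:1389811-1395838) had 2329 counts in replicate 1 and 1586 in replicate 2, or 94.6 ± 9.11 CPM (SD, n = 2). Its paralog FOXF1 (chr16:86544133-86549028) had 1840 and 1368 counts, or 78.0 ± 2.68 CPM (SD, n = 2). Both act in mesenchyme around the gut and lung, where hedgehog ligands induce them. FOXD1, a stromal factor of the developing kidney (chr5:72740654-72744602), had 1969 and 1592 counts. Its level was 87.0 ± 2.17 CPM (SD, n = 2), with the smallest difference between the libraries among the 6 highest members. FOXQ1, a factor linked to the epithelial-to-mesenchymal transition (chr6:1312333-1314993), had 1409 and 970 counts, or 57.5 ± 5.10 CPM (SD, n = 2). Of the annotated exons of FOXD1, 79.0% are shared with the pseudogene AC099522.1 on the same strand, and the division of its reads is uncertain if the counting used that entry. Of 11 hedgehog genes 8 reached the minimum, with a median of 2.03 CPM. The effector GLI3 had 22.7 and 43.7 CPM, the receptor PTCH1 had 17.1 and 27.5 CPM and the inhibitor SUFU had 21.1 and 22.6 CPM. Among the ligands SHH had 59 and 27 counts, DHH had 0 counts and 1 count and IHH had none, and the signal transducer SMO had 2 counts and 1 count. Their median was thus close to the 1.89 CPM of all genes.

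FOXC1, the factor of the basal-like lineage, was expressed well above FOXA1, the factor of the luminal one. FOXC1 (chr6:1610150-1614132) had 1019 and 882 counts, or 44.2 and 49.0 CPM, and its paralog FOXC2, an inducer of mesenchymal traits (chr16:86600435-86603334), had 636 and 797 counts, or 27.6 and 44.3 CPM. FOXA1 (chr14:38058757-38065264) had 196 and 144 counts, or 8.51 and 8.01 CPM. Per kilobase of exon FOXC1 had 11.1 and 12.3 RPKM and FOXA1 had 1.93 and 1.81 RPKM, so that the libraries of the 2 genes did not overlap. FOXA2, a pioneer factor of endoderm, had 190 and 86 counts, and FOXA3 of the same subfamily had none. FOXA1 was thus detected in the bulk RNA of the monolayer, at a low level. Fewer expressing cells and less RNA per cell cannot be told apart in bulk samples.

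Genes listed for the lineages of both factors were measured in the same libraries. Of 20 genes of the luminal FOXA1 lineage, 10 reached the minimum, against 52.8% of all genes, with a median of 1.03 CPM. The highest were the cyclin gene CCND1 with 712 and 881 CPM and the simple-epithelial keratin genes KRT18 with 409 and 282 CPM and KRT8 with 308 and 223 CPM, none of which is particular to luminal cells. The estrogen receptor gene ESR1 had 11 and 9 counts, and the luminal factor gene GATA3 had 3.73 and 3.22 CPM. The lowest of the list were the progesterone receptor gene PGR with 2 counts and 0 counts and TFF3 with 1 count and 0 counts. Of 19 basal and mesenchymal genes listed beside FOXC1, 16 reached the minimum, with a median of 54.5 CPM. The highest were the mesenchymal markers VIM with 8159 and 6925 CPM, FN1 with 2027 and 5101 CPM and SPARC with 1989 and 2171 CPM. The median of this joint list is thus not one of basal genes alone. The lowest were the basal keratin gene KRT6B with 1 count and 0 counts and the protease gene MMP7 with none, and KRT5 had 2 counts in each library. Other basal genes were expressed. KRT17 had 26.8 and 21.1 CPM and KRT14 had 19.5 and 10.2 CPM. The basal factor gene TP63 had 73.8 and 94.5 CPM, and the integrin gene ITGA6 had 309 and 433 CPM. The cadherin gene CDH3, a basal epithelial marker in the study, was lower with 3.91 and 3.78 CPM. The basal keratin genes of the list were thus divided, with 2 at the minimum and 2 near 0 counts.

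**Figure D2:**
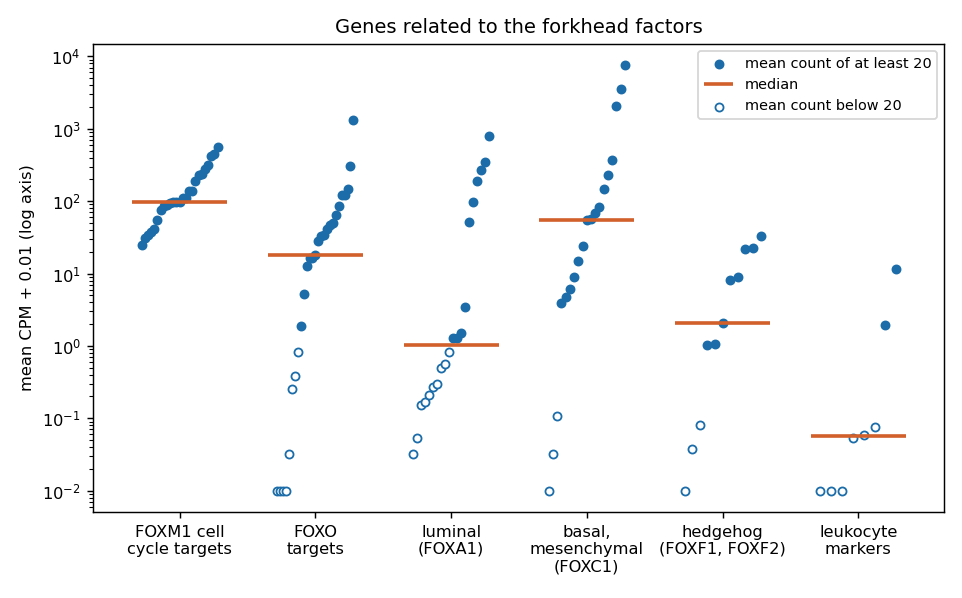
Mean CPM of the 2 libraries plus 0.01, on a log axis, for genes listed beside the forkhead factors. Each point is a gene, filled where its mean count was at least 20, and bars are medians, 98.3 CPM for the FOXM1 targets, 18.1 CPM for the FOXO targets, 1.03 CPM for the luminal list and 54.5 CPM for the basal and mesenchymal list.

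Among the FOXO genes, FOXO3 was the main transcript. FOXO3 (chr6:108881038-109005977) had 1254 and 1349 counts in replicates 1 and 2, or 54.4 and 75.0 CPM. FOXO4 (chrX:70315701-70323382) had 147 and 134 counts, or 6.38 and 7.45 CPM. FOXO1, the insulin-regulated factor of metabolic tissues (chr13:41129804-41240778), had 58 and 63 counts, or 2.52 and 3.50 CPM. Of its annotated exons, 22.7% are shared with the long noncoding RNA gene ENSG00000288542 on the same strand. The count of FOXO1 is uncertain if the counting used that entry. In both libraries FOXO3 thus exceeded FOXO4 and FOXO1, also per kilobase, where FOXO3 had 7.09 and 9.78 RPKM, FOXO4 1.68 and 1.97 RPKM and FOXO1 0.423 and 0.588 RPKM. FOXO3B, a copy of FOXO3 (chr17:18570942-18585627), was listed with 75 and 130 counts. Of the 100-base stretches in its annotated transcripts, 27.1% occur unchanged in those of FOXO3, and 22.5% of those of FOXO3 occur in FOXO3B. Reads from the shared stretches could belong to either gene, so both values are uncertain. FOXO6 was not analysed here.

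The proteins that keep FOXO factors in check were abundant. Of 18 genes of the kinases, their regulators and the 14-3-3 proteins, 17 reached the minimum, with a median of 148 CPM. By CPM the highest were the 14-3-3 genes YWHAQ with 693 and 638 CPM, YWHAZ with 637 and 591 CPM and YWHAB with 535 and 437 CPM. Their proteins hold phosphorylated FOXO in the cytoplasm. Per kilobase of exon YWHAQ led with 257 and 236 RPKM, followed by SFN with 217 and 159 RPKM. YWHAE (103 and 95.1 RPKM) and YWHAH (99.1 and 96.8 RPKM) then also exceeded YWHAZ (74.5 and 69.1 RPKM). AKT1, the kinase that phosphorylates FOXO on insulin signals, had 366 and 377 CPM. The lowest were INPP4B with 5.34 and 8.12 CPM and SGK3, which had no counts. All 12 deacetylases, ubiquitin enzymes and cofactors reached the minimum as well, with a median of 70.6 CPM. Among these the coactivator CTNNB1 had 369 and 348 CPM, the nuclear exporter XPO1 had 276 and 365 CPM and the deubiquitinase USP7 had 130 and 184 CPM, and the lowest were SIRT3 with 19.4 and 17.1 CPM and MAPK8 with 10.2 and 16.1 CPM.

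Targets of FOXO were mixed. Of 27 listed genes 19 reached the minimum, with a median of 18.1 CPM, against 52.8% of all genes. The highest were the mitochondrial superoxide dismutase gene SOD2 with 1465 and 1197 CPM, the thioredoxin inhibitor gene TXNIP with 386 and 229 CPM and the transcriptional cofactor gene CITED2 with 168 and 130 CPM. The arrest genes CDKN1A and CDKN1B, for p21 and p27, had 92.3 and 79.7 CPM and 50.5 and 43.3 CPM in replicates 1 and 2, and the death gene BCL2L11, for BIM, had 13.4 and 11.9 CPM. At the other end the death ligand gene FASLG, the gluconeogenic genes G6PC and PCK1 and the muscle atrophy gene TRIM63 had no counts. Within a role the targets differed, since FBXO32, another muscle atrophy gene, had 30.2 and 34.7 CPM, and the stress gene SESN3 had 5 counts in each library. Many of these genes also answer to p53 or NF-κB, and the levels do not say which factor set them.

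The remaining members above the minimum belong to the FOXP, FOXJ and FOXN subfamilies and to the ends of the FOXD and FOXL ones. FOXP4 and FOXP1, transcriptional repressors that act in lung and lymphoid development, had 61.6 and 67.3 CPM and 54.3 and 57.5 CPM in replicates 1 and 2. FOXJ3 had 40.2 and 67.4 CPM and FOXJ2 33.8 and 46.4 CPM, whereas FOXJ1, the switch for motile cilia, had no counts. FOXN3, a repressor tied to the DNA damage checkpoint, had 36.3 and 57.6 CPM, and FOXN2 had 21.2 and 26.5 CPM. FOXD2 had 60 and 39 counts and FOXL1, a factor of gut mesenchyme, had 54 and 46 counts, the lowest levels to pass. A gap separated these from the members below, of which the highest, FOXD4, had 11 and 6 counts.

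The 27 members below the minimum include the forkhead regulators of other tissues. Those with counts in both libraries were FOXD4, FOXD3 of the neural crest, FOXS1, FOXD4L1, FOXP2 of the brain, FOXH1, which serves the nodal pathway of the early embryo and shares 39.2% of its exons with KIFC2 (1648 and 1117 counts) on the opposite strand, and FOXD4L3, with 1 to 11 counts in each, and FOXN4 had 1 count and 0 counts. Among the members with no counts at all were FOXA3, FOXB1, FOXB2, FOXD4L2, FOXD4L4, FOXD4L5, FOXD4L6, FOXE1, FOXE3, FOXI1, FOXI2, FOXI3, FOXJ1, FOXL2, FOXN1, FOXP3, FOXR1 and FOXR2. Of the genes listed for 5 of these factors, the share at the minimum differed between lists, against 52.8% of all genes. Of 6 regulatory T cell genes around FOXP3 only IKZF2 reached the minimum, with 4.86 and 7.73 CPM. Of 6 thyroid genes around FOXE1 only NKX2-1 did, with 1.52 and 1.95 CPM, and of 5 ionocyte genes around FOXI1 only ATP6V1B1 did, with 3.04 and 1.89 CPM. Of the 7 ciliary genes of FOXJ1 that were found, DNAH5, RFX2 and RFX3 did, and of 6 granulosa cell genes of FOXL2, AMH, CYP19A1 and INHA did, AMH with 38.5 and 31.1 CPM. For the FOXD4 copies a count of 0 says little, since 69.8% to 100% of the 100-base stretches of FOXD4L2, FOXD4L4, FOXD4L5 and FOXD4L6 also occur in other members and how reads that match several places were counted is not stated.

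Levels of different genes can be compared only per length, and the order then changed. With the annotated exons merged as the length, FOXF2 came first with 41.2 and 36.0 RPKM, that is, CPM per kilobase of exon. FOXD1 followed with 29.9 and 30.9 RPKM, FOXM1 with 22.9 and 31.2 RPKM, FOXF1 with 22.7 and 21.6 RPKM and FOXQ1 with 23.0 and 20.3 RPKM. FOXF2 lay above FOXD1 in both libraries, whereas FOXD1 and FOXM1 overlapped, and so did FOXF1 and FOXQ1. After FOXQ1 came a step to FOXC2 with 9.52 and 15.3 RPKM, which did not overlap with it. FOXC2, FOXC1 and FOXK2 overlapped each with the next, as did FOXO3, FOXP4, FOXJ3, FOXK1 and FOXJ2. Of the 22 neighbouring pairs in this order, 7 did not overlap and 15 did. The place of FOXP1 depended on its length. Its merged exons come to 32800 bp and gave 1.70 ± 0.0681 RPKM (SD, n = 2), and its longest transcript of 7177 bp gave 7.79 ± 0.311 RPKM (SD, n = 2). FOXK2 likewise had 10.7 RPKM with merged exons and 20.5 RPKM with its longest transcript, and FOXM1 27.0 and 37.4 RPKM. With the longest transcript, FOXF2 stayed first but overlapped with FOXM1, which had 31.7 and 43.1 RPKM. FOXK2 then followed FOXQ1 with 18.9 and 22.0 RPKM and overlapped with it. By coding length FOXK2 had 45.1 and 52.5 RPKM and FOXQ1 50.6 and 44.6 RPKM, which overlapped too. The step after FOXQ1 thus held only with merged exons.

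**Figure D3:**
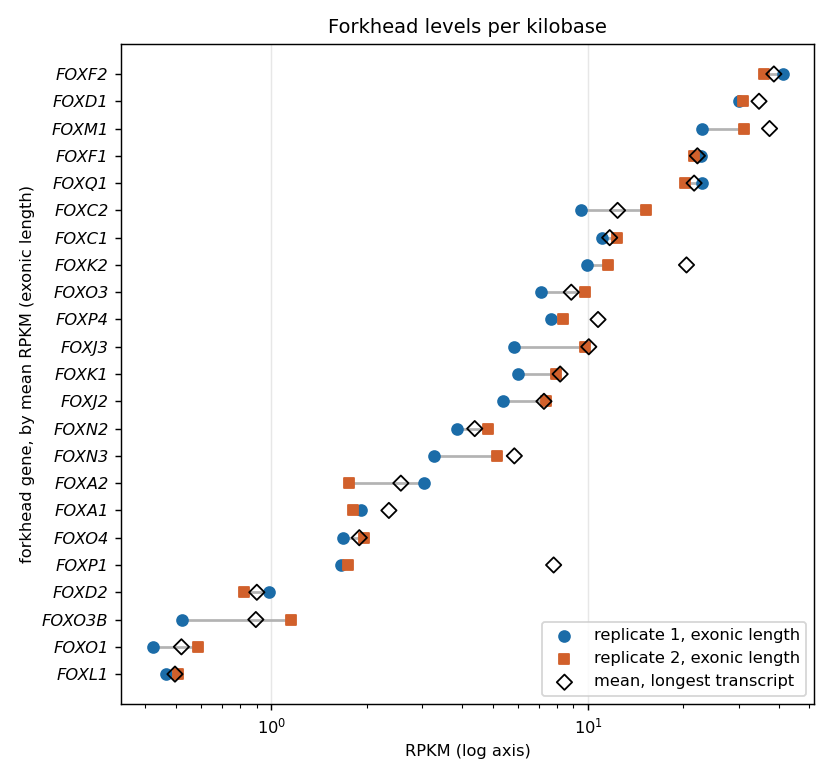
RPKM, on a log axis, of the 23 forkhead genes with a mean count of at least 20, ordered by their mean with the merged exonic length. Circles are replicate 1, squares replicate 2 and open diamonds the mean with the length of the longest transcript, which moves FOXP1 to 7.79 RPKM against 1.70 RPKM and leaves FOXF2 first at 38.6 RPKM.

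Several of the higher members are neighbours in the genome. On chromosome 6 of GRCh37, FOXQ1, FOXF2 and FOXC1 lie in this order on the plus strand within 301.8 kb, and all 3 reached the minimum, with 21.6, 38.6 and 11.7 RPKM. On chromosome 16, FOXF1, FOXC2 and FOXL1 lie on the plus strand within 73.0 kb, and here the levels differed, with 22.1, 12.4 and 0.488 RPKM. FOXE3 and FOXD2 on chromosome 1 lie within 24.4 kb, the first without counts and the second with 0.901 RPKM. Another triplet, FOXD4L5, FOXD4L4 and FOXD4L3 on chromosome 9, was below the minimum throughout. Further exonic overlaps included those of FOXC2 with FOXC2-AS1 on the opposite strand, 7.97% of its length, and of FOXP3 with CCDC22, which had 495 and 310 counts while FOXP3 had none. Of 5 listed neighbours of the forkhead genes that were found, 4 reached the minimum. C12orf32, the older symbol of RHNO1 beside FOXM1, had 49.0 and 44.4 CPM, GMDS near FOXC1 had 56.4 and 38.8 CPM, MTHFSD near FOXF1 had 18.0 and 14.3 CPM, MIPOL1 near FOXA1 had 12.3 and 17.9 CPM, and C3orf72 beside FOXL2 had 0 counts and 1 count.

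RefSeq promoters of GRCh38.p14, from 250 bases before to 50 after the 5′-most start, were found for 38 of the 50 members. Members with no entry included FOXM1, FOXF1, FOXC2, FOXN2, FOXA2, FOXL1, FOXS1, FOXH1, FOXD4L2, FOXE3 and FOXJ1. The 150 bases before the start are given 5′ to 3′ on the strand of the gene, with each CpG in capitals, for the 2 members highest per kilobase, for the lineage factors FOXC1 and FOXA1 and for FOXN1, a thymic factor without counts. They were chosen after their values were seen.
FOXF2 (chr6:1389426-1389575, plus strand): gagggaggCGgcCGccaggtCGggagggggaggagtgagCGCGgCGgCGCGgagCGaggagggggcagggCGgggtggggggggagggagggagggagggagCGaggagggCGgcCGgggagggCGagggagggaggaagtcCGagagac
FOXD1 (chr5:73448778-73448927, minus strand): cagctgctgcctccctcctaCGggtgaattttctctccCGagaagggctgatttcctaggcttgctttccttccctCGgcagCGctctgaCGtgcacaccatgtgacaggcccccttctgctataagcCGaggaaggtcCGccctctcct
FOXC1 (chr6:1609765-1609914, plus strand): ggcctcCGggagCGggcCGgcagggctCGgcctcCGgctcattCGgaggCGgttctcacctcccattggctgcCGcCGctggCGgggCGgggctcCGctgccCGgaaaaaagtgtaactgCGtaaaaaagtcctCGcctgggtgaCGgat
FOXA1 (chr14:37595250-37595399, minus strand): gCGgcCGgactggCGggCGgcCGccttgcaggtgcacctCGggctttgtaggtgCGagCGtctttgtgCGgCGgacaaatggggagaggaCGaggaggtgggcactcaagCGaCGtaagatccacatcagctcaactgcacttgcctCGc
FOXN1 (chr17:28506198-28506347, plus strand): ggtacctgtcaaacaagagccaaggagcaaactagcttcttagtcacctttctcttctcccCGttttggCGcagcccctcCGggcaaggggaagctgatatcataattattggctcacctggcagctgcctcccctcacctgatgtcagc

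These stretches hold 15 CpG in FOXF2, 7 in FOXD1, 16 in FOXC1, 14 in FOXA1 and 3 in FOXN1. Over the whole window of 300 bases, the 17 members at the minimum had a median of 34 CpG and a GC content of 72.7%, and the 15 members without counts a median of 16 CpG and 63.0%. All 27305 promoters had a median of 13 CpG. The ranges overlapped widely, with 8 to 55 CpG at the minimum and 1 to 39 without counts, so that FOXJ3 was expressed with 8 and FOXI3 had no counts with 39. The promoters hold 3 starts for FOXJ3, of which only the 5′-most was taken, and which start these cells used was not measured. FOXA1 and FOXC1 had 34 and 40 CpG at very different levels, and FOXD1, second per kilobase, had 16. The forkhead motif GTAAACA was found on either strand in 1 of the 38 windows, that of FOXO4, and in 3.44% of all promoters. CCAAT was found in 10 of the 38 and in 35.7% of all promoters. These were FOXK2, FOXF2, FOXQ1, FOXC1 and FOXO1 at the minimum and FOXD4L1, FOXB1, FOXD4L5, FOXN1 and FOXR2 below it. TTTGAA, the element of late cell cycle genes, was found in 7 and in 15.5%. It occurred in FOXJ3 and FOXN3 at the minimum and in FOXD4L1, FOXP2, FOXN4, FOXD4L5 and FOXP3 below it. None of the 3 motifs is contained in another, and a match is a description of the letters only.

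The libraries differed at most forkhead genes, about as often as at other genes. Of the 24 members with at least 10 counts over both libraries, 15 were called by the exact binomial test of edgeR with Benjamini-Hochberg adjustment over all genes, or 62.5%, against 57.7% of all genes tested. Of the 24 members, 3 were called higher in replicate 1, against 27.6% of all genes tested, and 12 in replicate 2, against 30.1%. Over all genes tested, 3790 were called higher in replicate 1 and 4140 in replicate 2, so the called members leaned more to replicate 2. The binomial test covers counting error only and compares these libraries, not conditions. The median absolute log2 ratio was 0.26 over the members at the minimum and 0.29 over all genes at the minimum. The largest log2 ratios of replicate 1 over replicate 2 were 0.78 at FOXA2 (adjusted p = 5.53e-05), 0.47 at FOXD4 with 11 and 6 counts (adjusted p = 0.712) and 0.26 at FOXD2 (adjusted p = 0.515), and on the other side −1.15 at FOXO3B (adjusted p = 7.16e-08), −0.75 at FOXJ3 (adjusted p = 1.15e-31) and −0.68 at FOXC2 (adjusted p = 2.93e-18). FOXM1 had a log2 ratio of −0.45 (adjusted p = 1.74e-28) in the same exact test, and of its 25 targets 15 were called, against 57.7% of all genes tested. Of the 25 targets, 3 were called higher in replicate 1, against 27.6% of all genes tested, and 12 in replicate 2, against 30.1%. The targets with the lowest log2 ratios, MKI67 at −1.69 and CENPF at −1.19, have long exons of 12845 and 12471 bp. CDC20, with 2012 bp, was at 0.03, but SKP2, with 17377 bp, was at 0.11. The part of length in the calls of the targets was not tested. FOXA1, FOXO1, FOXO4, FOXD1, FOXF1, FOXP1 and FOXL1 did not pass. When a biological coefficient of variation of 0.2 between libraries was assumed in the exact test of edgeR, 0 of the 24 members were called, with 1 at an unadjusted p under 0.05.

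Exonic length moved with these differences. Across the 23 members at the minimum, the Spearman rho between the log2 ratio and the exonic length was −0.56, and across 11841 genes at the minimum with a length it was −0.55. Genes are not independent replicates, and all points share the same 2 libraries. FOXF2 and FOXQ1, with exons of 2451 and 2661 bp, were higher in replicate 1, and FOXN3 and FOXK1, with 11154 and 13106 bp, in replicate 2. FOXC2 went the other way with 2900 bp and a higher level in replicate 2. The part of length in each difference was not tested.

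**Figure D4:**
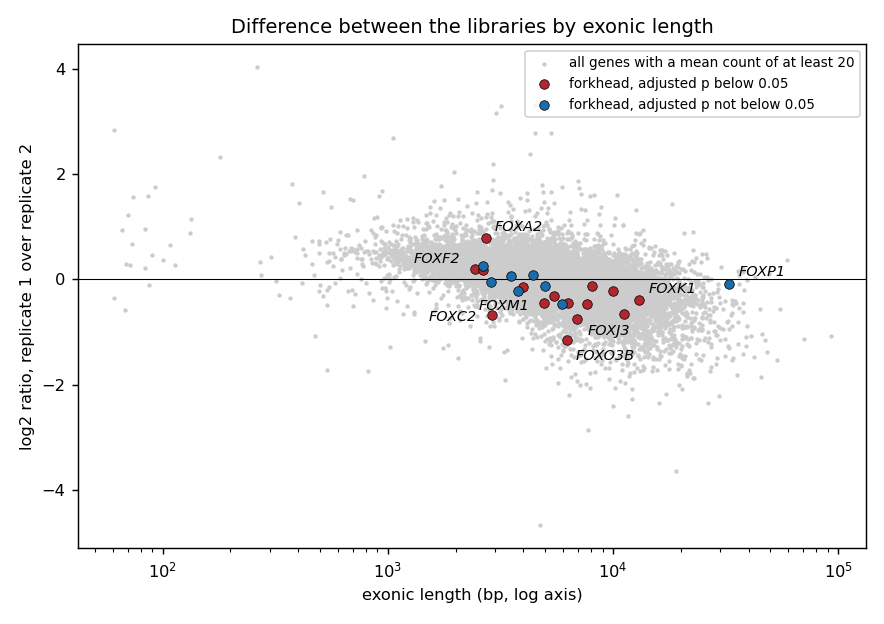
Log2 ratio of replicate 1 over replicate 2 against exonic length in bp, on a log axis, for the 11841 genes with a mean count of at least 20 and a length (grey) and the 23 forkhead genes among them. Red points passed the exact binomial test at an adjusted p below 0.05 and blue points did not, and the members follow the falling trend of all genes, with FOXA2 at 0.78 and FOXO3B at −1.15 as the outermost.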

How the data were processed

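Polyadenylated RNA from 2 libraries of doxorubicin-resistant SUM159 cells was made into directional libraries and sequenced. The deposited values are raw counts per gene symbol, which according to the methods and the submitters' processing notes the authors made with FastQC, HISAT2 mapping to hg19 and HTSeq. Not given in the sources used here were their versions, the annotation and the strand setting. Per-library totals of all 23368 symbols gave CPM, and division by exonic length gave RPKM. Lengths and coordinates came from a GENCODE annotation of GRCh37, the same build, which matched 21169 symbols and all 50 members.

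Libraries were compared gene by gene with edgeR (exact binomial test, at least 10 counts over both libraries, Benjamini-Hochberg adjustment, 0.5 counts added in log2 ratios). The script was tested on simulated counts. Every member is counted, and values of some genes are not given individually here. Of 19 related lists, the 3 highest and 2 lowest members by mean CPM are named, of tissue and marker lists those at the minimum. The order within a list can differ per kilobase. Members in between were named after their values were seen. Members and lists were chosen with earlier results of these data known. Promoters came from RefSeq. Alternatives covered the minimum count, scaling with TMM or DESeq2 size factors, length, filter, test and each library left out. R 4.3.3, edgeR 4.0.16, DESeq2 1.42.0, Python 3.11.15, pandas 2.3.3 and matplotlib 3.10.9 were used.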

Additional observations from a re-analysis of the deposited data

How the results depend on the processing

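The count of 23 forkhead genes at the minimum was also 23 with a minimum of 10, with a count of 20 in each library and with either library left out, and it was 22 with a minimum of 50. The summed level of 1117 CPM ranged between 1027 and 1207 CPM with 1 library left out and between 1117 and 1178 CPM with other scalings. The largest share was 11.0% and 12.7% with 1 library left out, and per kilobase it was 16.7%, held by FOXF2 in place of FOXM1. With an assumed coefficient of variation of 0.2, the exact test of edgeR called 0 forkhead genes in place of 15 and 84 genes in all in place of 7930. FOXC1 and FOXP4 passed narrowly (adjusted p = 0.0439 and 0.0421 in the exact binomial test) and did not pass with TMM scaling (0.0542 and 0.0551) or without a filter on low counts (0.0534 and 0.0512). By coding length 4 of the 5 highest members per kilobase were the same, and by the longest transcript all 5 were. No paired analysis was possible because the libraries form 1 group. With 2 libraries of 1 condition, an SD rests on a single difference.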
